A study of Mus musculus with 23 samples.

Results

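The proteasome genes described here are the 34 mouse genes with a symbol of Psma, Psmb, Psmc or Psmd and a number, without the immune and tissue-restricted subunits Psmb8, Psmb9, Psmb10, Psmb11 and Psma8. All 34 had a probe and passed the filter on dim probes, among 19899 genes tested in all. By role, 14 encode the core particle, 17 the regulatory particle, and 3 (Psmd5, Psmd9 and Psmd10) are assembly chaperones that carry Psmd symbols but leave the finished complex. The study asked how repeated furan dosing, linked in its title to death and regrowth of liver cells, altered liver transcripts. Female B6C3F1 mice, bought at 5 to 6 weeks of age and given at least 7 days to settle, received corn oil alone (5 mice) or furan in corn oil at 1 mg/kg (4 mice), 2 mg/kg (5 mice), 4 mg/kg (4 mice) or 8 mg/kg (5 mice) by oral gavage for 21 days. Livers were taken 4 h after the last dose, and total RNA of each mouse was hybridised once, in Cy5, against a universal mouse reference RNA in Cy3, with no dye swap. The values below are log2 ratios of liver over reference after loess normalization within each array, so a difference of 1 between groups is a doubling.

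The proteasome is the large protease that degrades most short-lived and damaged proteins marked with ubiquitin. Its barrel-shaped core is built of alpha rings, which gate the entry, and beta rings, in which Psmb5, Psmb6 and Psmb7 carry the catalytic sites. The regulatory particle caps the barrel: its Psmc subunits form a ring of ATPases that unfolds substrates, and its Psmd subunits bind ubiquitin, remove it and hold the cap together. When proteasome activity falls, the transcription factor Nrf1 (Nfe2l1) is known to raise the genes of nearly all subunits together, and oxidative stress can raise some of them through Nrf2 (Nfe2l2). In bulk liver RNA, fewer cells of a type and less RNA per cell cannot be told apart.

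The arrays gave 22010 to 30114 probes well above background and no saturated spot, and all 34 proteasome probes were well above background on 23 of 23 arrays. The hepatocyte markers measured, 7 of 8 on the list, were also well above background on every array. Arrays lay on 5 slides, and arrays of different groups on 1 slide deviated from their group means together (median correlation 0.22 over 41 pairs, against -0.066 over 170 pairs on different slides, across genes). Transcripts of pancreatic acinar cells stood far higher in 4 livers: 2 mg/kg replicates 1 and 5 (3.46 and 3.30 log2 units above the control mean), 4 mg/kg replicate 1 (3.75) and 8 mg/kg replicate 5 (2.58), against at most 0.41 elsewhere. Those of neutrophils were high in 2 mg/kg replicate 4 (2.83). Only 5 or 4 arrays a group limit the precision of every comparison.

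After 21 days of furan no subunit of the core or of the regulatory particle passed the test at any dose, and 1 assembly chaperone, Psmd5, rose at 8 mg/kg. At 8 mg/kg, limma called 1593 genes at an adjusted p of 0.05, which is 8.01% of those tested, and 1 of the 34 proteasome genes, or 2.94%. That gene was Psmd5. The 95% intervals of all 34 changes lay within 1.5-fold either way, against 61.8% of all genes tested. The width of an interval follows the spread between arrays of a group. The median residual SD was 0.11 over the 34 genes and 0.24 over all genes, and its part in this contrast was not tested. For the 31 subunits the intervals ran from -0.42 to 0.49, so that no interval reached a change of more than 1.40-fold. At an unadjusted p of 0.05, 6 of the 34 passed (17.6%), against 20.9% of all genes: Psmb2, Psmd12 and Psmd5 with higher values and Psmb7, Psmd3 and Psmd9 with lower ones. The control and 8 mg/kg arrays did not overlap for 2 proteasome genes (5.88%), Psmd5 and Psmd12, while 8.75% of all genes had groups that did not overlap. The median size of change at 8 mg/kg, either way, was 0.097 over the 34 genes and 0.15 over all genes, and a lower spread makes such sizes smaller too.

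**Figure D1:**
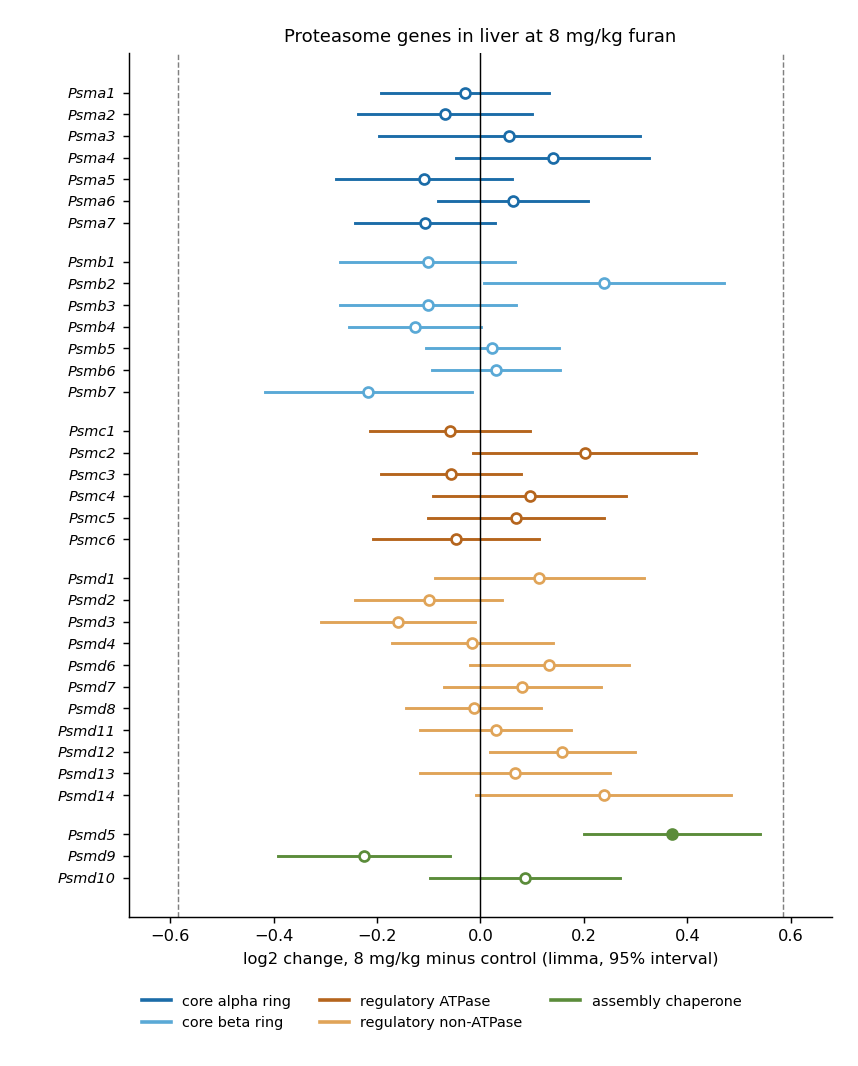
Change of each of the 34 proteasome genes at 8 mg/kg furan against control, as the difference of mean log2 ratios with its 95% interval from limma (5 arrays a group), ordered by particle and role. Psmd5, at 0.37, is the one gene past an adjusted p of 0.05, and the 31 subunits lie between -0.22 and 0.24.

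The lower doses called fewer genes in all, and no proteasome gene. At 1 mg/kg no gene was called (0%), at 2 mg/kg 2 genes (0.0101%) and at 4 mg/kg 16 genes (0.0804%). Between 8 and 4 mg/kg 41 genes were called (0.206%), again no proteasome gene, and the smallest unadjusted p among them was that of Psmd5. The moderated F test over the 4 doses called 624 genes (3.14%) and none of the 34; Psmd5 came nearest, with a limma adjusted p of 0.0653, followed by Psma5 at 0.150. With the slide as a block that of Psmd5 was 0.00488. A linear trend over dose was called for 2068 genes (10.4%) and for Psmd5 alone among the 34. All doses were compared with the same 5 control arrays, so the comparisons are not independent.

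Psmd5 binds an ATPase of the regulatory particle and holds immature caps back from the core. Its log2 ratio in the 5 control livers was -0.12, -0.061, -0.17, -0.0049 and 0.0063. At 1 mg/kg it was -0.18, 0.14, 0.091 and -0.086, at 2 mg/kg -0.068, 0.21, 0.16, -0.054 and -0.045, and at 4 mg/kg 0.14, -0.017, 0.16 and -0.047. In the 5 livers at 8 mg/kg it was 0.35, 0.21, 0.25, 0.21 and 0.48. Every 8 mg/kg array lay above every control array, while the lower doses overlapped the controls. Mean levels were -0.069 ± 0.075 (SD, n = 5) in controls, -0.011 ± 0.15 (n = 4) at 1 mg/kg, 0.040 ± 0.13 (n = 5) at 2 mg/kg, 0.061 ± 0.11 (n = 4) at 4 mg/kg and 0.30 ± 0.12 (n = 5) at 8 mg/kg. Psmd5 rose by 0.37 ± 0.081 (SE) at 8 mg/kg, or 1.29-fold (95% interval 1.15 to 1.45; limma adjusted p = 0.00735). The differences at 1, 2 and 4 mg/kg were 0.059, 0.11 and 0.13, none past the test. The slope over dose was 0.044 ± 0.0088 log2 units per mg/kg (limma adjusted p = 0.00183). No other proteasome gene was called for the top dose or the trend. Compared directly, 8 mg/kg exceeded 4 mg/kg by 0.24 ± 0.086, with a limma adjusted p of 0.386. Within the 4 slides that held a control and an 8 mg/kg array, the difference was 0.31 to 0.48, above 0 on 4 of 4. Psmd5 had 1 probe, so no further probe of it could be compared. Its highest value at 8 mg/kg, 0.48, came from replicate 5, a liver with far higher pancreatic transcripts. Without the 4 pancreas-rich arrays the rise was 0.33 (limma adjusted p = 0.0291).

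The promoter of Psmd5 is shown because this is the chaperone that rose, beside those of Psmd12, the regulatory subunit whose groups did not overlap, and of the catalytic core subunits Psmb5 and Psmb6, which did not pass the test. Each run is the 250 bases before the gene's start from RefSeq on GRCm38.p6, 5′ to 3′ along the gene. Psmd5 lies at chr2:34870963-34871212 (minus strand), Psmd12 at chr11:107479278-107479527 (plus strand), Psmb5 at chr14:54617996-54618245 (minus strand) and Psmb6 at chr11:70525107-70525356 (plus strand). Capitals mark matches on either strand to TGANNNNGC, the core of the antioxidant response element that Nrf1 and Nrf2 bind.
Psmd5: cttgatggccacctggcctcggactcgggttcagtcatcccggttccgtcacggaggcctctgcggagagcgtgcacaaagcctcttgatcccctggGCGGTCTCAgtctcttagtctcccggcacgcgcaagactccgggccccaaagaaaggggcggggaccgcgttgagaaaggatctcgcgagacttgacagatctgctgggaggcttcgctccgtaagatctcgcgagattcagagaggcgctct
Psmd12: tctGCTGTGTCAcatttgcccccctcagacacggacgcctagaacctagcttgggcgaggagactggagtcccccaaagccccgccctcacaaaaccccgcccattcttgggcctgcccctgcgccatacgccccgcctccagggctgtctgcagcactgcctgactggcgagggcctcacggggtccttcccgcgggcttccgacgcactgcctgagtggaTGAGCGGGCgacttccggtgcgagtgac
Psmb5: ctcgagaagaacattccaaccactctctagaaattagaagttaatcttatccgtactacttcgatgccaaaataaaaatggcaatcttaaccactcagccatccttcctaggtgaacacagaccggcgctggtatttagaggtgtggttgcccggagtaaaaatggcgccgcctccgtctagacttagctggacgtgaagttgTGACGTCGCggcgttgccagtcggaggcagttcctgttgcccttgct
Psmb6: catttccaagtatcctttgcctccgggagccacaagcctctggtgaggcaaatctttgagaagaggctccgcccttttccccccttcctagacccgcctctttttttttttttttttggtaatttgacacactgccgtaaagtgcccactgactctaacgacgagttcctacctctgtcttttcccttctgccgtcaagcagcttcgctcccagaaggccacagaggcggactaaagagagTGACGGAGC

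Counted back from the gene's start, the match in Psmd5 begins at -153 and reads on the opposite strand. Psmd12 has 2 matches, at -247 (opposite strand) and -28, Psmb5 has 1 at -47 and Psmb6 has 1 at -9. Promoter windows were found for 28 of the 34 genes, as 30 windows. TGANNNNGC was present in 12 of the 30 (40%), belonging to 11 genes, and in 35.2% of 32851 mouse promoter windows of the same length. Its stricter form TGACNNNGC, which TGANNNNGC includes, was in 5 of 30 (16.7%), those of Psmb5, Psmb6, Psmc6, Psmd12 and Psmd9, against 10.2%. CCAAT was in 11 of 30 (36.7%) against 33.8%, and GAANNTTC, a pair of heat shock units, was in 1 of 30 (3.33%), Psmb5, against 6.69%. Both strands were searched for each. A match is a description of letters and not a binding site. The promoters shown above all hold a match to TGANNNNGC, so they do not stand for the genes without one.

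**Figure D2:**
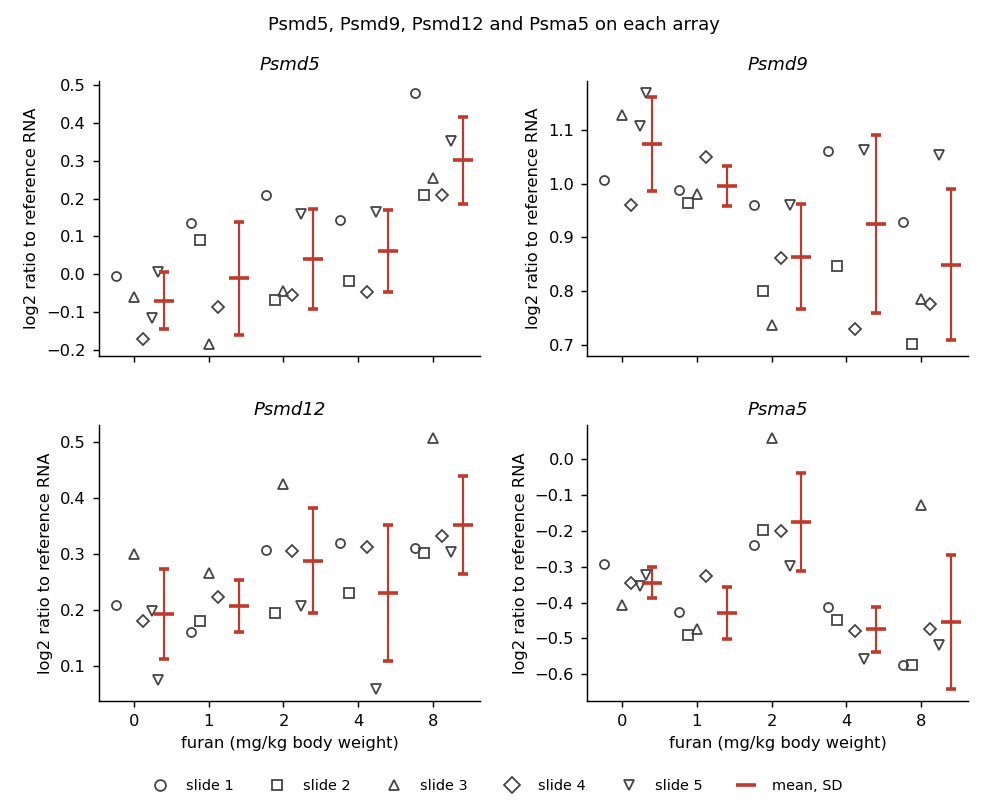
Log2 ratio of liver over reference for Psmd5, Psmd9, Psmd12 and Psma5 in each of the 23 arrays by dose of furan in mg/kg, with the slide as the point's shape and the group mean and SD in red. Psmd5 at 8 mg/kg (0.21 to 0.48) lies above all controls (-0.17 to 0.0063), and for Psma5 the array of the third slide at 8 mg/kg (-0.13) stands above the other 4.

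Among the 7 alpha ring genes, none was called and the median change at 8 mg/kg was -0.031, with 3 of 7 above 0. The highest was Psma4, a structural alpha subunit, at 0.75, 0.67, 0.91, 0.85 and 0.63 in controls and 0.74, 0.85, 0.98, 1.07 and 0.86 at 8 mg/kg. The groups overlapped, and the difference was 0.14 ± 0.090 (limma adjusted p = 0.418). The lowest was Psma5, another structural subunit of the ring. It read -0.35, -0.41, -0.35, -0.29 and -0.32 in controls, and -0.52, -0.57, -0.13, -0.47 and -0.57 at 8 mg/kg. Of the 5 mice at 8 mg/kg, 4 lay below every control and replicate 3, on the third slide, lay above all of them. The difference was -0.11 ± 0.082 (limma adjusted p = 0.505). Without the third slide it was -0.21, with a limma adjusted p of 0.0466, and within slides it ranged from -0.28 to 0.28, so 1 slide decided this value. At 2 mg/kg Psma5 read -0.20, -0.24, -0.30, -0.20 and 0.059, and at 4 mg/kg -0.41, -0.45, -0.56 and -0.48. The first of these groups lay mostly above the controls and the second at or below their lowest value.

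The 7 beta ring genes had a median change of -0.10 at 8 mg/kg, with 3 of 7 above 0 and none called. The chymotrypsin-like subunit Psmb5 read 1.25, 1.08, 1.06, 0.98 and 1.17 in controls and 1.17, 1.07, 1.17, 1.10 and 1.15 at 8 mg/kg. These overlapped almost entirely, with a difference of 0.023 ± 0.062 (limma adjusted p = 0.897). The caspase-like subunit Psmb6 read 1.11, 1.06, 1.02, 1.02 and 1.07 in controls and 1.01, 1.19, 1.07, 1.12 and 1.04 at 8 mg/kg. Its difference was 0.030 ± 0.060 (limma adjusted p = 0.853), again within the spread between arrays of a group. It was 0.27 after normexp background correction (adjusted p = 0.297), 0.22 with no background correction and 0.16 in the authors' value table, and passed the test under none of these. Psmb5 and Psmb6 were chosen for their catalytic role after their values had been seen.

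Psmb7, the trypsin-like subunit, was the lowest of the ring. It read 0.41, 0.55, 0.46, 0.15 and 0.33 in controls and 0.29, 0.24, -0.17, 0.17 and 0.29 at 8 mg/kg. The groups overlapped; the difference was -0.22 ± 0.096 (limma adjusted p = 0.192), and it was -0.71 to 0.13 within slides. Psmb2, a beta subunit with no catalytic site, was the highest. It read 0.39, 0.13, 0.22, 0.56 and 0.33 in controls, 0.70, 0.75, 0.82, 0.52 and 0.72 at 2 mg/kg, and 0.46, 0.50, 0.81, 0.38 and 0.68 at 8 mg/kg. Its difference was 0.37 at 2 mg/kg (limma adjusted p = 0.355) and 0.24 ± 0.11 at 8 mg/kg (limma adjusted p = 0.221). At 2 mg/kg 4 of 5 mice lay above every control, and at 8 mg/kg 2 of 5 did. Psmb1, Psmb3 and Psmb4 were within 0.13 of control at 8 mg/kg.

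The 6 ATPase genes of the regulatory particle, Psmc1 to Psmc6, had a median change of 0.010 at 8 mg/kg, and 3 of 6 lay above 0. At 1, 2 and 4 mg/kg 6 of 6 were above 0, each time with none called, against 46.1%, 47.7% and 44.6% of all genes. These doses share the same controls, and the 6 genes were read on the same arrays, so the counts are not independent. At 1 mg/kg the mean change of the 6 genes was 0.22 in replicate 1 and -0.012 to 0.014 in the other mice. At 4 mg/kg it ran from -0.10 to 0.15. Psmc2 was the highest at 8 mg/kg, with 0.23, 0.36, 0.20, 0.17 and 0.018 in controls and 0.23, 0.47, 0.56, 0.36 and 0.37 after dosing. The difference of 0.20 ± 0.10 did not pass (limma adjusted p = 0.276), with overlapping groups. Psmc1 was the lowest, with 0.87, 0.76, 0.69, 0.82 and 0.74 in controls and 0.67, 0.79, 0.77, 0.60 and 0.75 at 8 mg/kg. Its difference was -0.059 ± 0.074 (limma adjusted p = 0.735), and its sign turned under 3 other background or normalization settings.

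The 11 non-ATPase genes had a median change of 0.067 at 8 mg/kg, 7 of 11 above 0 and none called. Psmd12, a scaffold subunit of the lid, read 0.20, 0.30, 0.18, 0.21 and 0.075 in controls and 0.30, 0.30, 0.51, 0.33 and 0.31 at 8 mg/kg. The groups were separate by the narrowest margin, 0.3013 against 0.3002, and the difference was 0.16 ± 0.067 (limma adjusted p = 0.171). Psmd14, the deubiquitinase of the lid, read 0.096, -0.48, -0.41, -0.28 and -0.38 in controls and -0.13, -0.19, -0.093, 0.084 and 0.065 at 8 mg/kg. The first control lay above all 5 dosed mice, and the other 4 below them. Its difference was 0.24 ± 0.12 (limma adjusted p = 0.259). Psmd3, a lid scaffold subunit, read 0.26, 0.14, 0.13, 0.15 and 0.043 in controls and -0.0016, -0.021, -0.15, 0.072 and 0.022 at 8 mg/kg. The difference was -0.16 ± 0.071 (limma adjusted p = 0.197), the groups overlapped by 1 mouse of each, and its sign turned after normexp correction. Psmd12, Psmd14 and Psmd3 were singled out after their values had been seen.

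The other assembly chaperones of the regulatory particle did not pass the test. Psmd9, which also escorts an ATPase, read 1.11, 1.13, 0.96, 1.01 and 1.17 in controls. It read 0.80, 0.96, 0.96, 0.86 and 0.74 at 2 mg/kg, and 1.05, 0.70, 0.79, 0.78 and 0.93 at 8 mg/kg. Of the 8 mg/kg livers 4 of 5 lay below every control, and replicate 1 lay among them. The difference was -0.23 ± 0.080 (95% interval -0.39 to -0.059; limma adjusted p = 0.0908), and its further probe gave -0.37 (limma adjusted p = 0.0531). At 1, 2 and 4 mg/kg the differences were -0.079, -0.21 and -0.15. Without 8 mg/kg replicate 1, Psmd9 was at -0.28 with a limma adjusted p of 0.0417. With every mouse kept, the mean of its probes gave -0.30 with a limma adjusted p of 0.0417. The call therefore depended on this mouse and on the choice of probe. Psmd10, also known as the oncoprotein gankyrin, differed by 0.086 (limma adjusted p = 0.655).

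The particles were set side by side by the mean change of their genes in each array, relative to the control mean, with no test. Core scores ran from -0.039 to 0.031 in controls and from -0.056 to 0.058 at 8 mg/kg, where 4 of 5 mice lay below 0 and replicate 3 gave the 0.058. Regulatory scores ran from -0.098 to 0.095 in controls and from 0.0064 to 0.063 at 8 mg/kg, above 0 in 5 of 5 mice but above every control in 0. The core score minus the regulatory score lay between -0.064 and 0.066 in controls. It was below 0 in 4 of 4 mice at 1 mg/kg, 4 of 5 at 2 mg/kg, 4 of 4 at 4 mg/kg and 5 of 5 at 8 mg/kg, with values of -0.11 to -0.0045 at the top dose. The mean there was -0.066 ± 0.039 (SD, n = 5), against an SD of 0.054 among controls, and 3 of the 5 mice lay below every control. Set against the controls of the same slide, the difference was below 0 in 11 of 14 dosed mice and above 0 in 3, 1 each at 1, 2 and 8 mg/kg. At 8 mg/kg it ran from -0.13 to 0.0076. Every dosed mouse was set against the same control mean, and those of a slide against the same controls. The mice in these counts are therefore not independent of each other. The sign of the core median at 8 mg/kg, -0.049 here, turned under 4 other settings; within slides it was above 0 on 2 of 4, and that of the regulatory genes, 0.067, on 4 of 4.

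**Figure D3:**
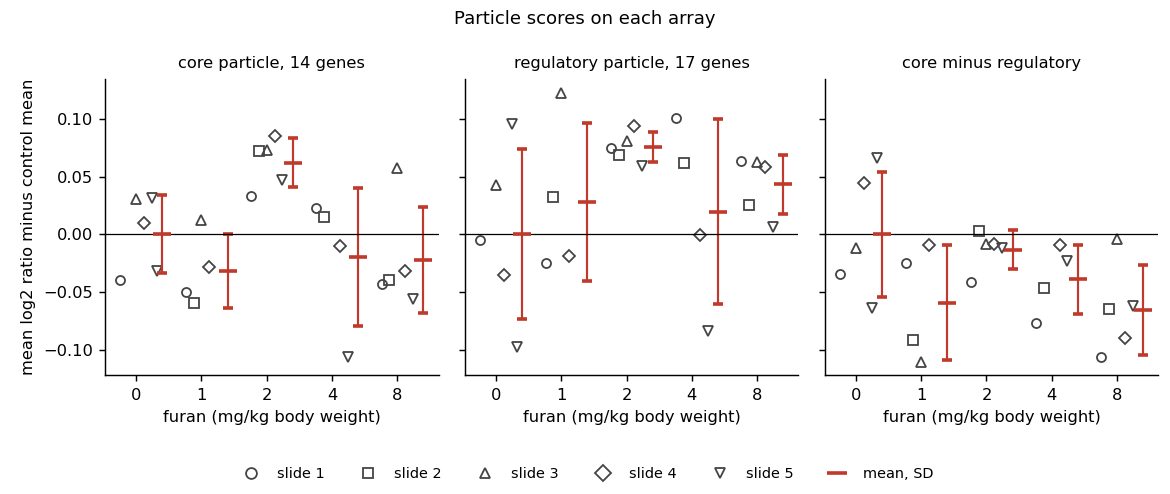
Mean change of the 14 core genes and of the 17 regulatory genes, and their difference, in each of the 23 arrays by dose in mg/kg, in log2 units relative to the control mean. The difference of core and regulatory scores is below 0 in 17 of 18 dosed mice, and in 11 of 14 against the controls of the same slide. The mice share their controls, so these counts are not independent.

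At 2 mg/kg the proteasome genes leaned upward without any passing the test. Of the 34, 28 lay above 0, against 47.7% of all genes, with a median of 0.076 against -0.0092 over all genes. The alpha ring had 7 of 7 above 0. The genes were read on the same arrays and tended to vary together within groups and slides, so these counts are not of independent genes. The core score was 0.033 to 0.085 in the 5 mice, each above every control. The largest single differences were Psmb2 (0.37), Psmd14 (0.27, limma adjusted p = 0.521) and Psmd9 (-0.21, limma adjusted p = 0.462). The 3 highest core scores came from mice whose arrays stand apart. These were replicates 1 (0.072) and 5 (0.073), with raised pancreatic transcripts, and replicate 4 (0.085), with neutrophil markers at 2.83 and macrophage markers at 0.79. The other arrays with far higher pancreatic transcripts had core scores of 0.023 (4 mg/kg replicate 1) and -0.043 (8 mg/kg replicate 5). Without the 4 pancreas-rich arrays, 27 of the 34 genes lay above 0 at 2 mg/kg, with a median of 0.054. The remaining mice at 2 mg/kg, replicates 2 and 3, were at 0.033 and 0.047, against 0.031 in the highest control. They too had markers above every control. Pancreatic markers were at 0.41 in replicate 2 (highest control 0.24), and neutrophil markers at 0.79 in replicate 3 (highest control 0.31). The part of these transcripts in the core scores was not tested. Within slides the core median was 0.037 to 0.082, above 0 on 4 of 4. At 4 mg/kg 17 of 34 lay above 0 (median 0.00040), at 1 mg/kg 16 of 34 (median -0.0076) and at 8 mg/kg 18 of 34 (median 0.026), but the value at 8 mg/kg depended on the background correction and on 1 mouse. After normexp it was 0.12, with 29 of 34 above 0 (0.11 at 2 mg/kg), and with no background correction 0.099 (0.096 at 2 mg/kg). With no loess it was 0.087, while the 4 mg/kg mice gave 0.086 and the 2 mg/kg mice 0.095. Without 8 mg/kg replicate 3 it was -0.0022. No order of the doses is read from these medians.

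The proteasome genes also varied little between arrays of a group. Each mouse was hybridised once, so differences between animals, arrays and slides are not separated in this spread. The residual SD on the log2 scale had a median of 0.11 over the 34 genes and 0.24 over all genes tested. It ran from 0.072 for Psmb6 to 0.19 for Psma3. All 34 lay below the median gene and 30 of 34 in the lowest 25%. Their probes were also bright, with a median log2 Cy5 signal of 14.3 against 10.1 over all genes, and all 34 were brighter than the median probe; the part of brightness in the low spread was not tested. Within groups and slides, the median correlation was 0.14 over the 91 pairs of core genes, 0.25 over the 136 pairs of regulatory genes and 0.20 over the 238 mixed pairs, against 0.0040 over all pairs of genes, with every pair read from the same 23 arrays.

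**Figure D4:**
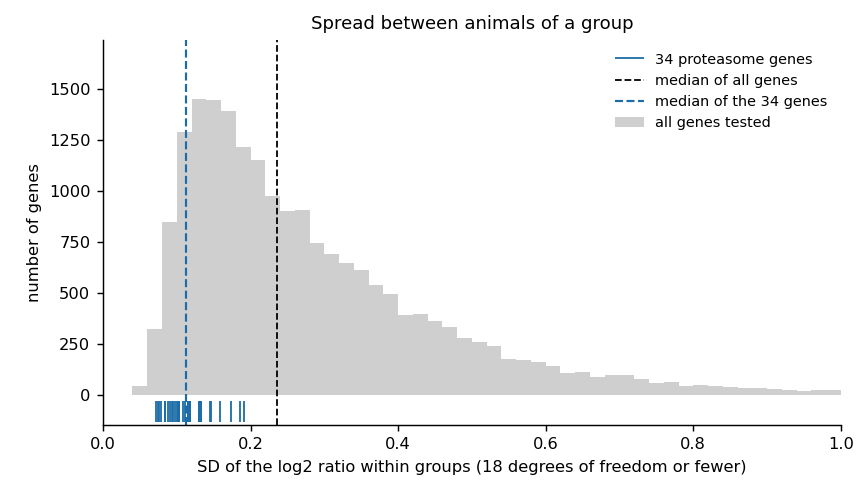
Residual SD between arrays of a group, with 1 mouse per array, in log2 units. It is shown for all genes tested (histogram, 195 genes at 1 or more lie beyond the axis) and for the 34 proteasome genes. The proteasome genes lie between 0.072 and 0.19, below the median of all genes at 0.24.

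The immune variants of the catalytic subunits, which interferon induces and which replace the constitutive ones in the core, fell at 8 mg/kg. Of Psmb8, Psmb9 and Psmb10, 3 of 3 were called, where 8.01% of all genes were called in either direction. The list of 5 also held the tissue-restricted Psmb11 and Psma8, which were not among the genes tested. Psmb8 read 0.15, 0.45, 0.31, 0.42 and 0.010 in controls and -0.29, -0.010, -0.083, -0.079 and -0.14 at 8 mg/kg. It fell by 0.39 ± 0.097 on the log2 scale (limma adjusted p = 0.0167), with no overlap. Psmb9 read 0.71, 0.79, 0.84, 0.75 and 0.66 in controls and 0.25, 0.44, 0.39, 0.39 and 0.41 at 8 mg/kg, also with no overlap. It fell by 0.37 ± 0.088 (limma adjusted p = 0.0117). Psmb10 read 0.62, 0.78, 0.90, 0.98 and 0.87 in controls and 0.42, 0.70, 0.58, 0.55 and 0.46 at 8 mg/kg, with 1 dosed mouse inside the control range; groups without overlap made up 8.75% of all genes. It fell by 0.29 ± 0.083 (limma adjusted p = 0.0362), a call lost in 8 of 14 other settings, and also when any of the control mice 2, 3, 4 and 5 or of the 8 mg/kg mice 1, 3, 4 and 5 was left out (limma adjusted p = 0.0524 to 0.0940). The call of Psmb8 was lost in 2 of the 14 settings (limma adjusted p = 0.0735 without the third slide) and that of Psmb9 in 3 (0.0843 after normexp).

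Lymphocytes and macrophages are rich in these immune subunits, so their markers are given beside them. The mean level of the T and NK cell markers, relative to the control mean, ran from -0.14 to 0.12 in controls and from -0.28 to 0.037 at 8 mg/kg, with 0 of 4 genes called. In 4 of 5 mice at 8 mg/kg it lay below every control, and in replicate 3 it was 0.037. Psmb8 and Psmb9 lay below every control in 5 of 5 mice at 8 mg/kg. Macrophage and Kupffer cell markers ran from -0.46 to 0.58 and from -0.27 to 0.44, with 0 of 6 called. Endothelial markers ran from -0.22 to 0.39 and from -0.40 to 0.10, below every control in 3 of 5 mice and with 1 of 6 called, and B and plasma cell markers from -0.43 to 0.31 and from -0.47 to 0.17, with 0 of 4. Their part in the lower immune subunits was not tested.

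Genes around the proteasome were counted by role at 8 mg/kg. Of the transcription factors that raise proteasome genes and their processing enzyme, 1 of 3 rose and 0 fell, again beside 8.01% of all genes called. Nfe2l2 read -0.33, -0.22, -0.15, 0.098 and -0.10 in controls and 0.52, 0.11, 0.71, 0.43 and 0.33 at 8 mg/kg, with no overlap, and it rose by 0.56 ± 0.12 (limma adjusted p = 0.00581). Nfe2l1 read 0.00048, 0.12, 0.24, 0.053 and 0.26 in controls and 0.021, 0.10, -0.27, -0.11 and -0.13 at 8 mg/kg. The groups overlapped, at a difference of -0.21 (limma adjusted p = 0.385).

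Among the shuttle factors, which carry ubiquitinated proteins to the cap, and the segregase that extracts them from complexes, 3 of 11 measured rose and 0 fell, against 8.01% of all genes called either way. Rad23b, a ubiquitin receptor also used in DNA repair, was at 0.55, 0.46, 0.33, 0.40 and 0.36 in controls and at 0.97, 0.82, 0.82, 0.97 and 0.71 at 8 mg/kg. It rose by 0.44 ± 0.081 (limma adjusted p = 0.00202). The ubiquilin Ubqln1 was at -0.51, -0.24, -0.40, -0.33 and -0.80 in controls and at 0.052, 0.24, 0.55, 0.31 and 0.18 at 8 mg/kg, and rose by 0.72 ± 0.14 (limma adjusted p = 0.00263). The stress-induced proteasome-binding gene Zfand2a was at -1.86, -1.59, -1.55, -1.65 and -1.68 in controls and at -1.32, -1.27, -0.99, -1.18 and -1.30 at 8 mg/kg, and rose by 0.45 ± 0.083 (limma adjusted p = 0.00191). In each of the 3 genes every 8 mg/kg mouse lay above every control, and 8.75% of all genes had groups that did not overlap in either direction.

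The remaining groups held few or no calls. Of the assembly chaperones and maturation factors 1 of 8 measured rose, Psmd5 itself; the maturation factor Pomp was at -0.12 (limma adjusted p = 0.364). Of the other regulatory subunits and bound proteins 0 of 7 were called, among them the ubiquitin receptor Adrm1 at 0.0077 (limma adjusted p = 0.981) and the small lid subunit Sem1 at -0.18 (limma adjusted p = 0.196). With the slide as a block Sem1 was at -0.18 with a limma adjusted p of 0.0184. The alternative activators and the inhibitor Psmf1 gave 0 of 5, and ubiquitin and its activating enzymes 0 of 6, with the enzyme Uba6 highest at 0.54 (limma adjusted p = 0.0630).

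**Figure D5:**
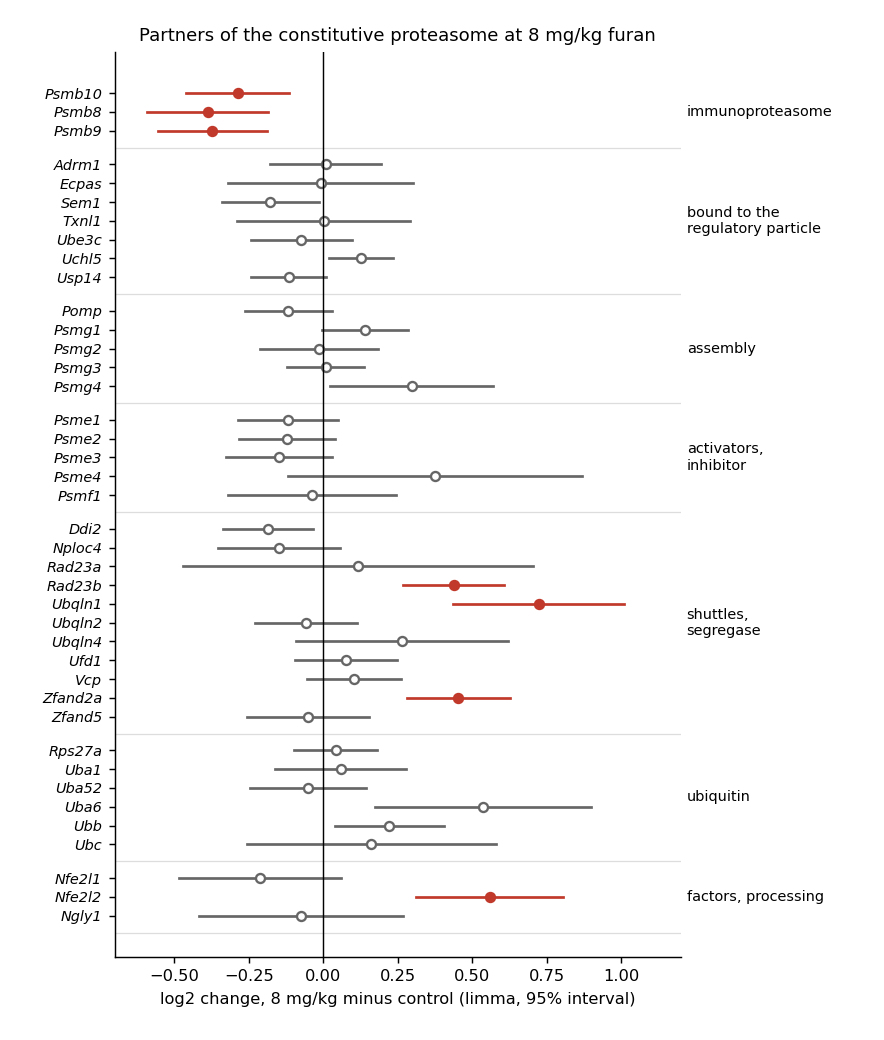
Change at 8 mg/kg against control, in log2 units with 95% intervals from limma, for the genes around the proteasome, by list, without the 3 Psmd chaperones. Nfe2l2, Rad23b, Ubqln1 and Zfand2a lie above 0 and Psmb8, Psmb9 and Psmb10 below 0 past an adjusted p of 0.05.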

How the data were processed

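Liver RNA of 23 mice was read on 2-colour Agilent arrays; the series text counts 25 samples, and 23 were analysed here. Per the file headers, spots were extracted with Agilent Feature Extraction 10.7.3.1. The deposited processed signals are intensities that this software had subtracted for background and normalised between dyes, and the deposited median signals and backgrounds are raw intensities. The authors' value table holds linear ratios of Cy5 over Cy3, with column medians of 0.974 to 0.987. Their log2 correlates with the values used here at 0.927 to 0.972 per array. The scale and direction follow from that comparison, and further normalization by the authors is not given in the sources used here.

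Log2 ratios were computed from the deposited processed signals and normalised by loess (span 0.3, 4 iterations) in limma 3.58.1 under R 4.3.3. Of 55681 probes from 62976 spots, 25576 were kept that were well above background in Cy5 on at least 4 arrays of a group and had at least 3 values in each group. Symbols came from RefSeq accessions and the brightest probe stood for a gene, giving 19899 genes, 12927 with a symbol. Of the proteasome genes 8 had 2 probes. 1 linear model over all arrays, with 18 residual degrees of freedom, gave the comparisons between groups and the F test. A separate model over all arrays, with dose as a number, gave the trend. The comparisons and the trend were two-sided. All used Benjamini-Hochberg adjustment over all genes and a threshold of 0.05. The fit was tested on simulated data. Labels give a group and a replicate number, and each array was taken as a separate animal. The proteasome genes and the other lists were chosen with earlier results of these data known.

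Named in full were genes past the threshold and the highest and lowest gene of each class at 8 mg/kg; others are marked as chosen later. Around the proteasome, the genes called and Nfe2l1, Nfe2l2, Psmb8, Psmb9, Psmb10, Pomp, Adrm1 and Sem1 were named. Same-numbered mice did not deviate together (median correlation 0.023 over 43 pairs, lowest -0.24), so numbers were not used for pairing. Alternatives covered background correction, loess, the value table, filters, probe choice, slide, and leaving out arrays.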

Additional observations from a re-analysis of the deposited data

Results flagged for a closer look

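Of 135 groups of 4 or 5 arrays examined, 10 held 1 array far from the rest; chance gives about 1 in 20. At 8 mg/kg, 5 of the 10 were replicate 3, on the third slide: Psma5 at -0.13, Psmb7 at -0.17, Psmd12 at 0.51, Sem1 at 0.18 and the core score at 0.058. Psma5, Sem1, Psmd12 and the core score were above the other 4 mice there and Psmb7 was below them. Psmb9 was lowest in 8 mg/kg replicate 1 (0.25). At 2 mg/kg Psma5 was highest in replicate 5 (0.059), Psmb5 in replicate 4 (1.26) and Psmb6 in replicate 1 (1.14). At 1 mg/kg Psmd3 was highest in replicate 1 (0.36).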

How the results depend on the processing

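Psmd5 at 8 mg/kg passed under all 14 other settings (0.33 to 0.44; limma adjusted p = 0.000426 to 0.0291) and without each of the 23 arrays in turn (0.33 to 0.39; 0.00591 to 0.0247). The number of proteasome genes called at 8 mg/kg was 2 with the mean of a gene's probes (with Psmd9, -0.30, limma adjusted p = 0.0417) and 2 without slide 3 (with Psma5), and 1 to 2 without single arrays. For the trend it was 2 with no loess and with the slide as a block (with Psmd12) and 2 without slide 3 (with Psma5). For the F test it was 1 after normexp, with no background correction, with no loess, with probes well above background on every array and with the slide as a block (Psmd5), 1 without slide 3 (Psma5), and 0 to 1 without single arrays (Psma5, without 8 mg/kg replicate 3).

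All genes called at 8 mg/kg numbered 1009 after normexp, 1013 with no background correction, 931 in the value table, 930 with no filter and 1039 with only the arrays of both groups (1155 to 1784 without single arrays), against 1593, and 2326 with the slide as a block. Over the other settings and without single arrays, in that order, the count ran from 0 to 2 and 0 to 7 at 2 mg/kg, 4 to 64 and 6 to 23 at 4 mg/kg, and 2 to 68 and 15 to 55 for 8 against 4 mg/kg. It ran from 321 to 1189 and 365 to 727 for the F test, and from 1298 to 3015 and 1563 to 2398 for the trend. The replicate block, although numbers do not pair the mice, gave 1521, with 1 proteasome gene called, Psmd5 at 0.37 (limma adjusted p = 0.0135); it changed no call of a proteasome gene.

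The core particle median was 0.033, 0.11 and 0.095 at 1, 2 and 8 mg/kg after normexp, and 0.092 and 0.054 at 2 and 8 mg/kg with no background correction. It was 0.0066, 0.080 and 0.015 at 1, 4 and 8 mg/kg with no loess, and -0.069 and 0.0095 at 1 and 8 mg/kg in the value table. The regulatory particle median was 0.13 and 0.15 at 2 and 8 mg/kg after normexp, 0.11 and 0.11 with no background correction, 0.11, 0.11 and 0.12 at 2, 4 and 8 mg/kg with no loess, and 0.069 at 2 mg/kg with the slide as a block. Without single arrays it was 0.066 to 0.10 at 2 mg/kg and 0.034 to 0.074 at 8 mg/kg, lowest without control replicate 5 and control replicate 3. Core minus regulatory was -0.016, -0.015, -0.021 and -0.020 at 2 mg/kg after normexp, with no background correction, in the value table and with the slide as a block. At 4 mg/kg with that block it was -0.060, and at 8 mg/kg after the first 3 it was -0.050, -0.056 and -0.059. Without single arrays it was -0.060 to -0.019 at 2 mg/kg and -0.13 to -0.067 at 8 mg/kg. Of the 34 genes, 29 lay above 0 at 8 mg/kg after normexp, 25 with no background correction, 24 with no loess and 22 in the value table, against 18.

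Signs turned for Psmc1 (0.051 after normexp, 0.0097 with no background correction, 0.0086 with no loess), Psmd3 (0.015) and Sem1 (0.032) after normexp, and Adrm1 with the slide as a block (-0.0033) and without single arrays (-0.043 to 0.086). Psmb5 ranged from -0.0090 (without control replicate 4) to 0.059 without single arrays. The cause was not tested.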
